A study of Mus musculus with 20 samples.

Results

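The ATP-binding cassette (ABC) transporter family was examined in mouse liver. Members were the genes whose symbol starts with Abc, a subfamily letter from a to g and a digit, and which have at least 1 probe set assigned to that gene alone. This gave 45 members among the 18193 genes named on the array; where a member had several probe sets, the brightest on average over the 20 arrays stood for it. Livers came from 20 male mice of the inbred strain C57BL/6J, aged 8 weeks per the labels. For 4 weeks, 10 mice ate a high-fat diet with 45 kcal% fat plus 0.05% MSXH, a maple syrup extract, and the other 10, called HFD, ate that high-fat diet without it. All had first eaten a low-fat diet for a week and were fasted for 16 h before the liver was taken. The comparison asks how the extract alters the liver during high-fat feeding. The low-fat group and the group given 0.02% extract were not analysed here.

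ABC transporters are membrane proteins that use the energy of ATP to move a substrate across a membrane, mostly out of a cell or into an organelle. In hepatocytes, exporters on the canalicular membrane push bile salts, phospholipid, cholesterol and conjugated drugs into bile, and others on the blood-facing membrane return conjugates and cholesterol to the circulation. Some members serve mitochondria, peroxisomes or lysosomes, and those of subfamilies E and F carry the ATP-binding part without a membrane part and work in translation.

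Each mouse gave 1 array, so 10 values stood behind each diet. The deposited log2 values hardly differed between arrays: the median SD over all probe sets was 9.34e-06. Ordinary variation between animals is far larger, so these differences are compressed and are no fold changes. Single values are therefore given as deviations from the 20-mouse mean in millionths of a log2 unit. Group differences are given as Hedges' g, the difference of the group means, MSXH minus HFD, in units of the pooled SD. Deviations may be compared between mice for 1 gene. Whether compression acted equally on different genes was not tested. The hepatocyte markers Alb, Ttr, Apoa1, Fgb and Ahsg had levels of 13.44 to 14.74. Those 5 were lower in MSXH livers in 4 cases (median g = -0.338), and Kupffer cell markers in 5 of 6 (median g = -0.121). Summed log2 levels of the 5 hepatocyte markers ran from 70.827924 to 70.827939 in MSXH mice and from 70.827925 to 70.827942 in HFD mice. Sinusoidal endothelial markers were higher in MSXH livers in 6 of 6 cases (median g = 0.454). Their summed log2 levels were 50.8326 to 50.8405 in MSXH mice and 50.8340 to 50.8386 in HFD mice. These counts were made on the deposited scaling only. Shifting all arrays to the same median left 8321 of 11728 genes higher in MSXH livers. No marker of these 3 lists passed the test. That test, limma, draws the variance of each gene towards a value shared by all genes. Apoa1, with an SD of 0.0553 millionths, had g = -0.379 and an unadjusted limma p of 0.972. A marker of so small a spread could hardly pass, so its failing says little. The part of cell composition in the results below was not tested, and in whole liver, fewer cells of a type and less RNA per cell cannot be told apart. HFD replicate 3 had the highest score of all 20 arrays on the first principal component of all genes (0.453), and it was far above the other HFD mice in several members.

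Most of the family gave signals above the array's midpoint. A level below the median of all probe sets (6.51) was treated as too low to test between the diets in the main fit. By this filter 34 of 45 members were kept (75.6%), against 11728 of 18193 genes (64.5%). Levels of different genes come from different probes and are no measure of relative RNA amount, so they are given only to place each gene against the filter and to show the range of its subfamily.

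Subfamily A holds large lipid transporters, and its 14 members had levels of 5.53 to 10.97. Abca1 (10.97) loads cholesterol and phospholipid onto apolipoprotein A-I. Below the filter were Abca4, the retinoid flippase of the retina, Abca12, the lipid transporter of skin keratinocytes, and also Abca13, Abca14 and Abca16. Subfamily B ran from 6.07 to 11.67 over 8 members. Above the filter were the phosphatidylcholine floppase Abcb4 (11.67), the bile salt export pump Abcb11 (10.97) and Abcb6, a porphyrin transporter (9.75), as well as Abcb8, Abcb9 and Abcb10. The P-glycoprotein genes Abcb1a (6.20) and Abcb1b (6.07), drug efflux pumps, lay below the filter.

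The conjugate exporters and channel regulators of subfamily C had levels of 6.29 to 10.82 over 10 members. Abcc2 (10.82) exports bilirubin and drug conjugates into bile. Abcc4, Abcc12 and the pancreatic sulfonylurea receptor Abcc8 were below the filter. Subfamily D serves the peroxisome, except for the lysosomal cobalamin exporter Abcd4 (7.29). Its Abcd3, which carries branched-chain and other acyl chains into peroxisomes, had a level of 13.15, and Abcd2 (6.36) was below the filter. The ribosome recycling factor Abce1 had a level of 9.72, and the 3 subfamily F members ranged from 8.30 to 9.42. All 6 subfamily G members passed the filter, with levels of 6.79 for Abcg3 to 10.33 for the xenobiotic and urate exporter Abcg2.

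**Figure D1:**
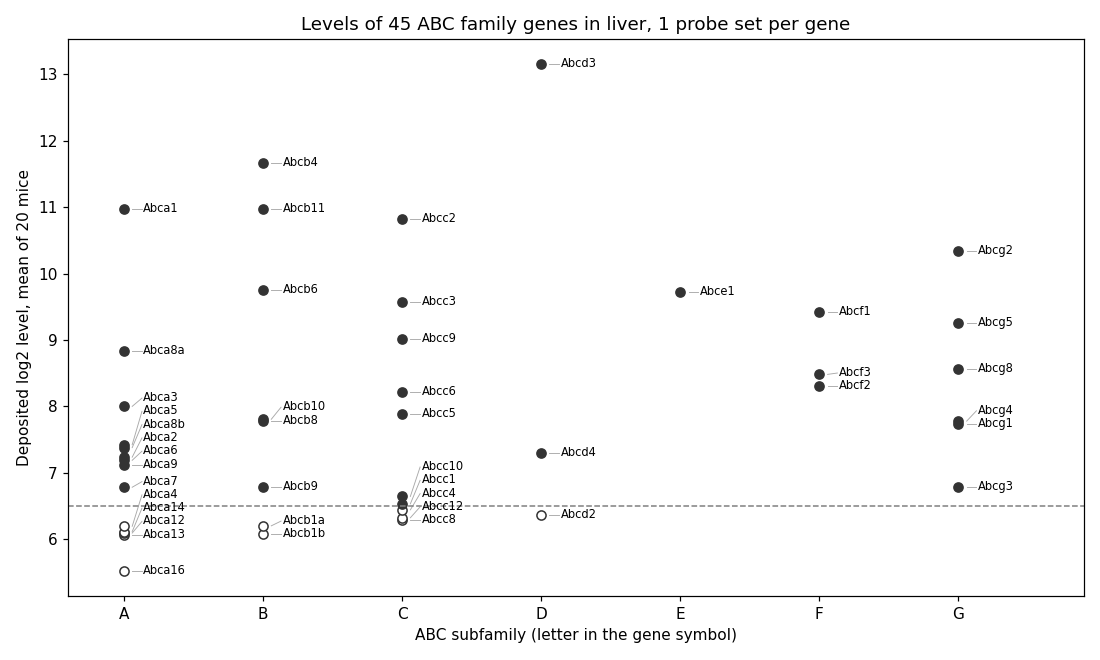
Deposited log2 level, as the mean of 20 mice, of 45 ABC genes by subfamily letter; filled points passed the filter, open points did not, and the dashed line is the filter level of 6.51. Subfamilies A, B, C and D have members on both sides of the line, and the points of E, F and G all lie above it.

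No member passed the test between the diets. With limma fitted over all 11728 genes kept and Benjamini-Hochberg adjustment, 0 of 34 members passed an adjusted p of 0.05, and the background was 0% of all genes (smallest adjusted p = 0.9998). At an unadjusted p of 0.05, limma called 0 of 34 members, against 425 of all genes (3.62%). By direction, the background at that p was 1.88% of genes higher and 1.74% lower in MSXH livers. In sign, 18 members were higher in MSXH livers and 16 lower, with a median g of 0.037; over all genes, 5792 were higher and 5934 lower, with a median g of -0.00692. That split depended on the scaling: after all arrays were shifted to the same median, 26 of 34 members and 8321 of 11728 genes were higher. An absolute g above 0.5 was found for 5 of 34 members (14.7%) and for 22.3% of all genes. The ranges of the 10 MSXH mice and the 10 HFD mice overlapped for all 45 members. Overlap was not counted over all genes, so it is not shown to be particular to the family.

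**Figure D2:**
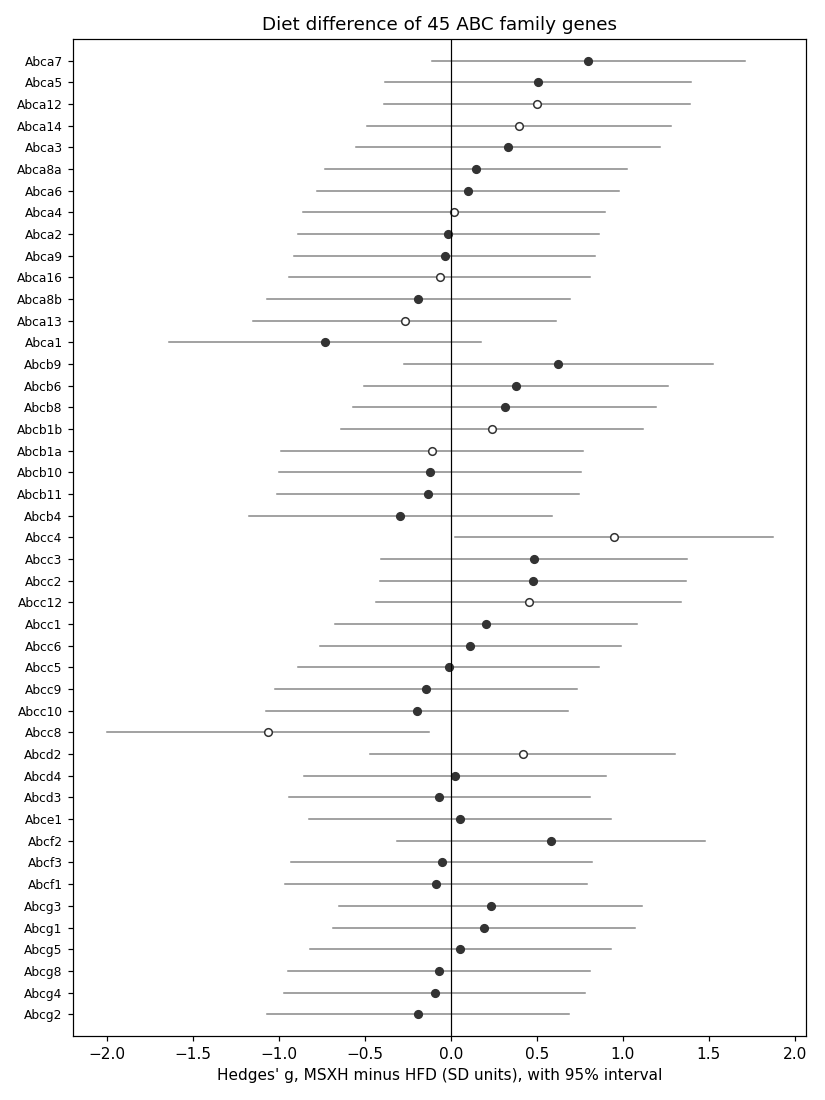
Hedges' g, MSXH minus HFD, in SD units with its 95% interval, for 45 ABC genes ordered by subfamily and by g; filled points passed the filter and open points did not. The 34 filled points lie between -0.734 for Abca1 and 0.799 for Abca7, with every interval crossing 0, and the intervals of the open points Abcc4 and Abcc8 do not cross 0.

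Among the sterol exporters, Abca1 deviations ran from -305 through a median of -63.3 to 153 in MSXH mice, and from -214 through a median of 122 to 199 in HFD mice; below, a middle value after "through" is likewise the median. The HFD median was exceeded by 1 of 10 MSXH mice, yet the ranges overlapped over most of their length. The difference had g = -0.734 (95% interval -1.64 to 0.172) and an unadjusted limma p of 0.0975, the most negative g among the 34 members. All 3 Abca1 probe sets gave a negative g, and the other 2 correlated with the chosen one at r = 0.654 and 0.782. The lowest of the 3 had a level of 5.94, below the filter.

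Abcg1, which passes cholesterol to high-density lipoprotein particles, had deviations of -31.3 to 35.4 with a median of 2.72 in MSXH mice, and of -36.6 to 23.9 with a median of -1.01 in HFD mice. The groups overlapped almost completely, and g was 0.192 (-0.687 to 1.07), turning to -0.165 under quantile normalization. That step left 4 distinct Abcg1 values where the deposited data had 20. Abcg5 and Abcg8 are the paired subunits of the exporter that sends cholesterol and plant sterols into bile. Abcg5 ran from -928 through 71.8 to 1109 in MSXH mice, against -646 through -153 to 914 in HFD mice, with g = 0.0539 (-0.823 to 0.931). Its partner Abcg8 ran from -138 through 4.02 to 83.4 in MSXH mice and from -57.2 through 7.74 to 38.8 in HFD mice. The HFD range of Abcg8 lay inside the MSXH range, and g was -0.0691 (-0.946 to 0.808). It was 0.133 after quantile normalization, which left 6 distinct Abcg8 values.

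Among the other canalicular exporters, Abcb11 deviations were -349 to 278 with a median of -3.99 in MSXH mice, and -428 to 358 with a median of 8.13 in HFD mice. Here the MSXH range lay inside the HFD range (g = -0.135, -1.01 to 0.743). Abcb4 deviations were -37.6 to 43.8 with a median of -9.28 in MSXH mice, and -35.9 to 27.9 with a median of 4.45 in HFD mice. Only 3 of 10 MSXH mice were above the HFD median of Abcb4, with g = -0.296 (-1.18 to 0.586). Abcc2 was -80.3 to 116 with a median of 20.5 in MSXH mice, and -131 to 95.2 with a median of -26.4 in HFD mice. For this conjugate pump 8 of 10 MSXH mice were above the HFD median, and g was 0.476 (-0.413 to 1.37). Abcg2 was -1015 to 419.5 with a median of 43.6 in MSXH mice, and -945 to 909 with a median of -45.1 in HFD mice. For Abcg2, 3 HFD mice exceeded every MSXH mouse. Its g of -0.191 (-1.07 to 0.688) became 0.0185 after quantile normalization, which left 3 distinct Abcg2 values.

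On the blood-facing membrane, Abcc3 exports glucuronides and bile salts. Its deviations ran from -886 through 402 to 1207 in MSXH mice, and from -1386 through -382 to 1065 in HFD mice. Both diets had mice well above and well below the mean, with 6 of 10 MSXH mice above the HFD median (g = 0.482, -0.407 to 1.37). Abcc6, the ATP release transporter whose loss causes ectopic calcification, ran from -40.2 through -5.22 to 72.3 in MSXH mice and from -45.8 through -0.0187 to 70.6 in HFD mice. These ranges nearly coincided, with g = 0.113 (-0.764 to 0.990) as deposited and -0.232 after quantile normalization, which left 4 distinct Abcc6 values.

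Members below the filter were left out of the counts above. Abcc4, a basolateral exporter of bile salts and cyclic nucleotides, ran from -10.6 through 5.17 to 18.8 in MSXH mice and from -21.7 through -3.82 to 10.1 in HFD mice. In limma without the filter it had g = 0.947 (0.0223 to 1.87) and an unadjusted p of 0.0376. Abcc8, named after its values were seen, ran from -34.7 through -9.50 to 14.98 in MSXH mice and from -6.69 through 7.63 to 34.2 in HFD mice. Its g was -1.07 (-2.003 to -0.129) and its unadjusted p 0.0206. Abcc8 has 2 probe sets, and the other gave g the opposite sign. Both genes overlapped between the diets, and limma without the filter gave both an adjusted p of 0.999. At an unadjusted p of 0.05 that fit had 2 of 45 members and 780 of 18193 genes. Abcb1a was -9.07 to 6.24 with a median of -0.804 in MSXH mice, against -9.27 to 8.42 with a median of -0.0688 in HFD mice (g = -0.112, -0.989 to 0.765). The copies Abcb1a and Abcb1b, and Abca8a and Abca8b, are similar in sequence, and how far their probe sets also read the other copy was not tested.

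The peroxisomal Abcd3 was -2.99 to 3.56 with a median of -0.0120 in MSXH mice, and -2.73 to 3.26 with a median of 0.158 in HFD mice. Its g was -0.0680 (-0.945 to 0.809), or 0.202 after shifting the arrays to the same median. Abce1 was -5.82 to 3.99 with a median of 0.826 in MSXH mice, and -6.88 to 7.45 with a median of 0.574 in HFD mice (g = 0.0525, -0.824 to 0.929). After quantile normalization, which left 3 distinct Abce1 values, its g was 0.997, at an unadjusted p under 0.05 and an adjusted limma p of 1. Abcf1, which helps start translation, was -7.14 to 9.49 with a median of -2.18 in MSXH mice and -8.40 to 9.39 with a median of -1.01 in HFD mice. Abcf1 had g = -0.0889 (-0.966 to 0.788) as deposited, and 0.158 and 0.497 under the same-median shift and quantile normalization. The latter left 5 distinct Abcf1 values. In all 3 genes the ranges of the diets overlapped widely.

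Abca7, a phospholipid transporter of the Abca1 type, had the most positive g of the 34 members and was named after its values were seen. It ran from -17.0 through 4.66 to 34.4 in MSXH mice and from -31.1 through -5.95 to 15.8 in HFD mice. Its HFD median was exceeded by 8 of 10 MSXH mice, with overlapping ranges, g = 0.799 (-0.111 to 1.71) and an unadjusted limma p of 0.0742.

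The SD over the 20 mice is given for some members as a description of the deposited scale; since compression may differ between probe sets, these SDs do not rank the genes by biological variation. Abca8a, whose human counterpart ABCA8 promotes cholesterol efflux, had an SD of 17351 millionths. Its deviations ran from -25013 through -1437 to 21561 in MSXH mice and from -27066 through -7414 to 34309 in HFD mice. High and low mice occurred in both diets, and g was 0.147 (-0.731 to 1.02). The SD was 746 for Abcc3, 567 for Abca6, 556 for Abcg5, 514 for Abcg2, 480 for Abcd4 and 1.70 for Abcd3. Abca6, a neighbour of Abca8a with an unsettled substrate, ran from -728 through -52.3 to 1002 in MSXH mice and from -1085 through 32.6 to 649.8 in HFD mice (g = 0.0970, -0.780 to 0.974). The median SD was 26.2 over the 34 members and 14.8 over all genes kept. Single SDs of all genes kept ran from 0.0293 to 495395 millionths, so these medians also do not compare biological variation.

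**Figure D3:**
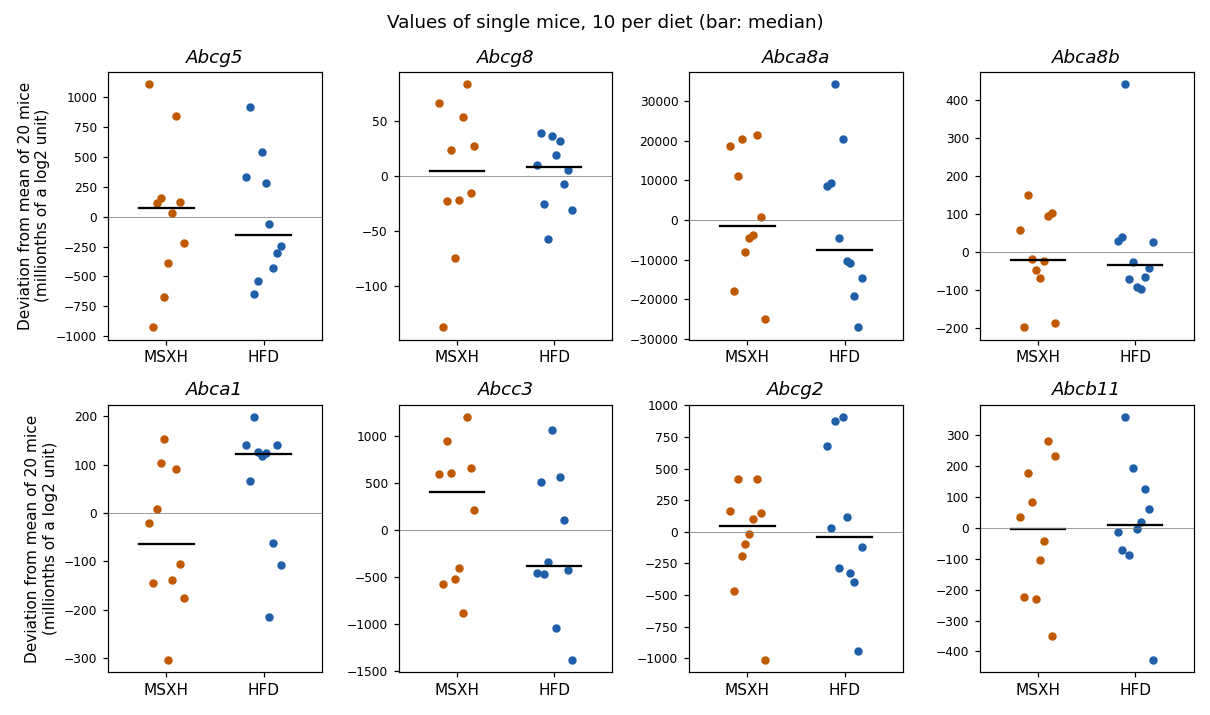
Deviation from the 20-mouse mean, in millionths of a log2 unit, for 8 ABC genes; each point is 1 mouse, MSXH left and HFD right, the bar is the group median, and the vertical scales differ. The diets overlap in all 8 panels, and 1 HFD mouse (replicate 3) lies at 442 for Abca8b, far above the other 19.

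Mouse-to-mouse values of known partner genes were compared for 9 pairs. Each had a two-sided permutation test of Pearson's r over 20 mice, with Benjamini-Hochberg adjustment over the 9. The filter was not applied to these pairs. Abcc3 with Abcc4, Abcb1a with Abcb1b and Abcd2 with Abcd3 each had at least 1 gene below it. Abcg5 and Abcg8 moved together most closely among the 9, with r = 0.814 and Spearman's rho = 0.811 (permutation p = 2e-05, adjusted 0.00018; for rho 3e-05 and 0.00027). The correlation was 0.855 within MSXH mice, 0.804 within HFD mice and 0.813 without the 2 mice farthest from the Abcg5 median. After quantile normalization r was 0.121; that step left 5 distinct Abcg5 values and 6 distinct Abcg8 values where the deposited data had 20 each.

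The start regions of these 2 genes are shown because the genes are read in opposite directions from overlapping promoter windows. Each window, from RefSeq on GRCm38.p6, holds 250 bases before and 50 bases after the transcript start and is printed 5′ to 3′ on its gene's strand, with the 209 bases shared by both windows in capitals. The Abcg5 window lies at chr17:84682962-84683261 on the minus strand and the Abcg8 window at chr17:84682871-84683170 on the plus strand.
Abcg5: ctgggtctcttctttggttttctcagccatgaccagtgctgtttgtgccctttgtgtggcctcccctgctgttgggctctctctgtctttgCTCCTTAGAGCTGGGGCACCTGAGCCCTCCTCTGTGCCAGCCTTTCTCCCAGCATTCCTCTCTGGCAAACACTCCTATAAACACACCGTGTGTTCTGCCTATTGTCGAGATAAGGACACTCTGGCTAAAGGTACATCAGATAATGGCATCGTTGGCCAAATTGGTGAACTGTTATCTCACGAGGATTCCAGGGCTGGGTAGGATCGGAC
Abcg8: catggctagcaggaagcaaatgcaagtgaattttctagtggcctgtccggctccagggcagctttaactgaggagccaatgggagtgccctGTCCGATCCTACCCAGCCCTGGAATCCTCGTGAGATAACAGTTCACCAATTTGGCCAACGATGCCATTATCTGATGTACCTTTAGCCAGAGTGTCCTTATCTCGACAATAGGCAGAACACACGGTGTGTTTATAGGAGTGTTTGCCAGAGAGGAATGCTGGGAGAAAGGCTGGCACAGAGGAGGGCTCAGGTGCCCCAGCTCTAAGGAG

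Windows were found for 35 of 45 members, 42 windows in all, and only this pair of genes had overlapping ones. The shared stretch holds the GATA-factor motif AGATAA at 3 places, counting both strands. That motif occurred in 11.2% of 32851 windows of all genes and in 6 of the 42 member windows. Nuclear receptors bind repeats of AGGTCA, and 3 arrangements were searched on both strands: a direct repeat with 1 base (N) between the copies, a direct repeat with 4 bases between them, and AGGTCA followed after 1 base by its reverse complement. All 3 occurred in 0 of the 42 windows. In all windows their shares were 0.0396%, 0.0152% and 0.00913%. Exact repeats this rare would seldom be found in any 42 windows, so their absence here says nothing particular about the members. The single AGGTCA occurred in 7 member windows (16.7%), those of Abcb6, Abcb11, Abcc2, Abcc10 and Abcg2, and in 16.3% of all windows. A match here describes letters only.

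Abca8a and Abca8b, neighbouring copies on chromosome 11, also varied together (r = 0.734, rho = 0.735, permutation p = 7e-05, adjusted 0.000315; adjusted p for rho 0.00144). Abca8b, described in full as a member of this pair, had deviations that ran from -199 through -20.1 to 149.6 in MSXH mice and from -97.3 through -34.6 to 442 in HFD mice (g = -0.190, -1.07 to 0.689). Their correlation was 0.792 within MSXH mice and 0.724 within HFD mice, 0.661 without HFD replicate 3 (adjusted p = 0.00882 by permutation), and 0.619 without the 2 mice farthest from the Abca8a median. It was -0.322 after quantile normalization, which left 7 distinct Abca8b values. With the first component of all genes removed it was 0.423 (adjusted p = 0.194 by permutation).

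The 2 start regions are shown to compare the copies, each on the minus strand, 5′ to 3′, with the E-box CACGTG in capitals. The Abca8a window lies at chr11:110095888-110096187 and the Abca8b window at chr11:109995796-109996095.
Abca8a: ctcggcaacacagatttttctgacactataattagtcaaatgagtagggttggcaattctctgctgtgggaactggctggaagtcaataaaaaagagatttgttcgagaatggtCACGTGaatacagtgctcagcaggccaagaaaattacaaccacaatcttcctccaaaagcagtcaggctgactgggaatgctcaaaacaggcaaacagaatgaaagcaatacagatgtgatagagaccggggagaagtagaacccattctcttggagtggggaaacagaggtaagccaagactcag
Abca8b: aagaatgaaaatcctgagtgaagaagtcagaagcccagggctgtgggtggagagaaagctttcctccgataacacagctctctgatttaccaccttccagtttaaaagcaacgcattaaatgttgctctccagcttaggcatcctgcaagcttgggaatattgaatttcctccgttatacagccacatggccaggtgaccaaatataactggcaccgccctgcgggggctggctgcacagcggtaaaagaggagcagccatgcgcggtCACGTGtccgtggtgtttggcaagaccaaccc

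The E-box starts at base 115 of the Abca8a window and at base 269 of the Abca8b window. It occurred in 7.15% of all windows and in 5 of the 42 member windows, the others being those of Abca1, Abcc4 and Abcf1. Aligned with each other, the Abca8a and Abca8b windows were identical at 47.9% of columns. The same alignment gave 49.3% for Abca8a with Abcg2 and 49.7% for Abca8a with Abcb11, which are distant members. Among nearer relatives it gave 47.8% for Abcb1a with Abcb1b, 49.5% for Abca8a with Abca9 and 51.1% for Abca8b with Abca9. All these pairs had much the same identity, so the measure did not tell copies from distant members.

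**Figure D4:**
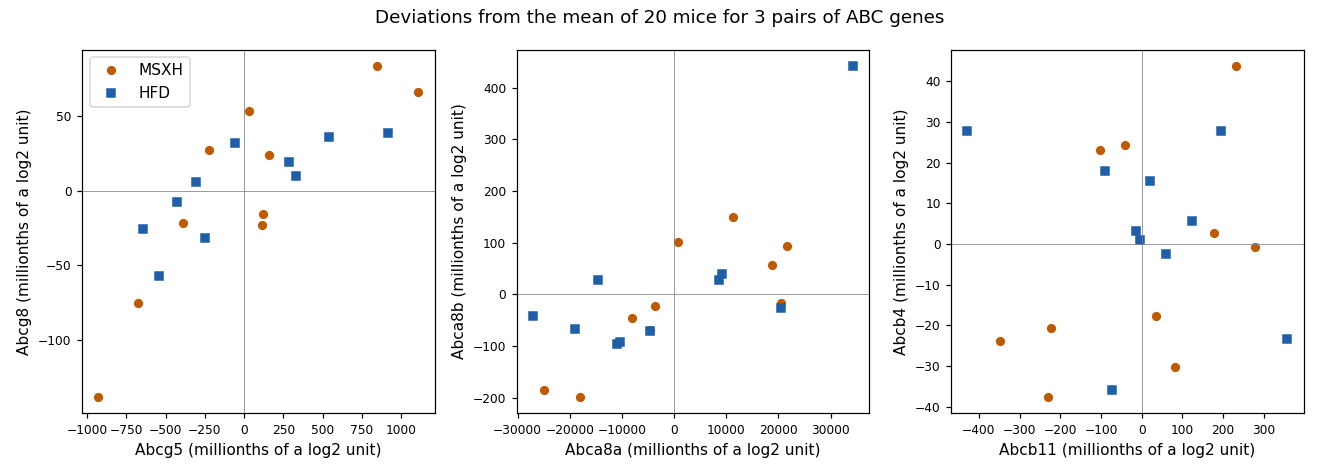
Deviations of 2 ABC genes against each other, in millionths of a log2 unit, for Abcg5 with Abcg8, Abca8a with Abca8b and Abcb11 with Abcb4; each point is 1 mouse, circles MSXH and squares HFD. The first 2 pairs rise together (r = 0.814 and 0.734), 1 HFD mouse (replicate 3) is at the upper right of the middle panel, and the third pair shows no slope over all mice (r = 0.135).

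Of the other 7 pairs, none passed an adjusted p of 0.05 on the deposited values, and 4 passed it under other settings, whose values are given with each pair. Abca1 and Abcg1, the cholesterol efflux pair, came nearest with r = 0.521 (rho = 0.469, permutation p = 0.0195, adjusted 0.0586). Their r was 0.757 within MSXH mice and 0.429 within HFD mice, and 0.424 without the 2 mice farthest from the Abca1 median. Without HFD replicate 9 the r of Abca1 and Abcg1 was 0.708 (adjusted p = 0.0024 by permutation), and without MSXH replicate 3 it was 0.568 (adjusted p = 0.036). As deviations from the diet means it was 0.608 (adjusted p = 0.0142 by permutation). Abcb11 and Abcb4 had r = 0.135 over all mice, 0.484 within MSXH mice and -0.355 within HFD mice. Abcb11 and Abcc2 had r = 0.056 over all mice, 0.648 within MSXH mice and -0.429 within HFD mice. The difference in r between the diets was not tested for any pair.

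The basolateral pair Abcc3 and Abcc4 had r = 0.202 (rho = 0.248) and the translation pair Abcf1 and Abce1 had r = 0.313 (rho = 0.400). The neighbouring P-glycoprotein genes Abcb1a and Abcb1b had r = 0.105 (rho = 0.087), and the peroxisomal Abcd2 and Abcd3 had r = 0.045 (rho = 0.078). Abcc4, Abcb1a, Abcb1b and Abcd2 lay below the filter, and the Abcd2 probe set used correlated at only 0.110 to 0.211 with its other probe sets. After the arrays were shifted to the same median, r was 0.940 for Abcf1 with Abce1 and 0.823 for Abcb1a with Abcb1b (both adjusted p = 4.5e-05 by permutation), and 0.667 for Abcd2 with Abcd3 (adjusted p = 0.00252). That shift adds 1 number to every gene of an array, up to 23.6 millionths, against SDs of 3.64 for Abce1, 5.23 for Abcf1, 5.36 for Abcb1a, 6.65 for Abcb1b, 12.1 for Abcd2 and 1.70 for Abcd3. As deposited, adjusted permutation p-values of r for these 4 pairs and the 2 Abcb11 pairs were between 0.399 and 0.853.

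Across all 561 pairs of the 34 members, the median r was 0.037, against 0.012 over all gene pairs, and the range was -0.829 to 0.830. After the shift to the same median, the median r of the members was 0.356. The value over all gene pairs was not computed after that shift, so 0.356 is not shown to be particular to the family. The shift adds 1 number to every gene of an array, up to 23.6 millionths, against a median SD of 26.2 over the members. As deposited, an absolute r above 0.6 was reached by 37 pairs (6.60%), 25 positive and 12 negative, and by 3.13% of all gene pairs. Genes are not independent replicates, so these shares carry no test. Among the pairs outside those 9, picked for their r, Abca8a correlated positively with Abcg2 (0.830) and Abcg1 (0.778) and negatively with Abcd4 (-0.829), Abca6 (-0.815) and Abca5 (-0.713). These values rest on 1 probe set per gene, and the other Abcd4 probe set had r = -0.0116 with the one used. Abca8a, Abca6 and Abca5 lie on chromosome 11 in 1 row with Abca8b and Abca9, so members of that row ran in opposite directions between mice. Abcb6 correlated with Abcb10, a mitochondrial exporter needed for heme synthesis, at r = 0.801 and with the lipid transporter Abca3 at 0.772.

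Part of this pattern followed the main axis of variation of the arrays. The first principal component of all genes carried 16.4% of the variance, and 13 of 34 members (38.2%) had an absolute r above 0.5 with it, against 25.2% of all genes. Abcg2 (r = 0.848) and Abca8a (0.827) lay at the positive end, and Abca6 (-0.778) and Abcd4 (-0.769) at the negative end. With that component removed, r was 0.433 for Abca8a with Abcg2, 0.681 for Abcb6 with Abcb10 and 0.793 for Abcg5 with Abcg8. What the component stands for was not tested.

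**Figure D5:**
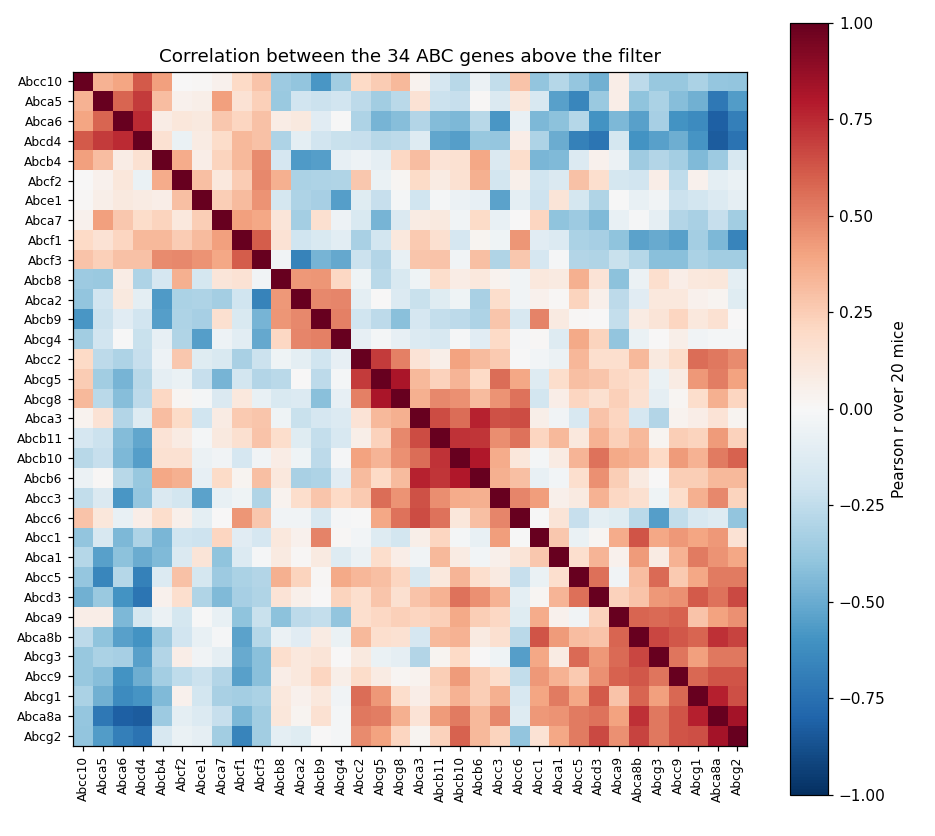
Pearson r over 20 mice between the 34 ABC genes above the filter, red positive and blue negative, with genes in clustered order. A block from Abcc1 to Abcg2 with Abca8a at its lower end is mainly red, and its r with Abca5, Abca6 and Abcd4 is mainly blue, down to -0.829.

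Different probe sets of 1 gene agreed only in part. The 45 members had 92 probe sets, and 26 members had more than 1. Where both probe sets had an SD at or above the median of all probe sets, the median r between them was 0.611 over 22 pairs from 9 genes, against 0.458 over 10655 pairs of all genes. For the other 81 pairs, from 19 genes, it was 0.061, against 0.110 over all genes. Most of these 81 came from Abcc5, with 10 probe sets, and Abcf1, with 6. The 3 probe sets of Abcc9, the sulfonylurea receptor of vascular smooth muscle, correlated at 0.751 to 0.840 between mice, yet both others gave the diet difference the opposite sign to the chosen one. Abcb9 and Abcd4 showed no agreement, with r of -0.353 to -0.188 for Abcb9 and of -0.0116 for Abcd4 between the chosen probe set and the others. The r with the chosen probe set was also negative for Abcg4 (-0.267), Abcb8 (-0.230), Abcc10 (-0.145), Abcc1 (-0.125) and Abcc12 (-0.114). Every other member with several probe sets had at least 1 positive r with its chosen one.

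Regulators and partner genes of the family were read from the same limma fit, and 0 of them passed the adjusted threshold. Of 14 listed regulators, 12 had a probe set and passed the filter; 7 were higher and 5 lower in MSXH livers, with a median g of 0.113. At an unadjusted p of 0.05 limma called 1 of the 12, against 3.62% of all genes. This was Srebf2, which switches on cholesterol synthesis and uptake genes. Srebf2 ran from -9.48 through 6.73 to 52.8 in MSXH mice and from -47.5 through -15.0 to 34.6 in HFD mice (g = 0.965, 0.0391 to 1.89, unadjusted p = 0.0339). Its ranges overlapped. The count was 0 after quantile normalization, the 75th percentile filter, the mean of all probe sets and the probe set of largest SD. The 75th percentile filter tested 11 regulators and left out Srebf2, whose level of 7.12 was the lowest of the 12. Quantile normalization and the probe set of largest SD also tested 11. With the first component as a covariate the count was 3 of 12, against 534 of 11728 genes.

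The bile salt receptor gene Nr1h4 ran from -109 through -20.4 to 103 in MSXH mice and from -109 through 2.48 to 109.9 in HFD mice (g = -0.316). Nr1h3, encoding the oxysterol receptor that activates Abca1, Abcg1, Abcg5 and Abcg8, ran from -12.3 through -1.87 to 8.28 in MSXH mice and from -11.9 through 2.69 to 12.1 in HFD mice (g = -0.389). Both receptors overlapped widely between the diets. The xenobiotic receptor gene Nr1i2 ran from -348 through 38.8 to 713 in MSXH mice and from -1589.9 through -47.3 to 939.8 in HFD mice (g = 0.472). Nr1i3, its relative, ran from -161 through -9.25 to 138 in MSXH mice and from -245 through 15.1 to 118 in HFD mice (g = 0.0717). For Nr1i2 the spread among HFD mice was wider on both sides than among MSXH mice.

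Of 21 listed partners, namely other transporters, lipoprotein genes and peroxisome import genes, 17 passed the filter, 9 higher and 8 lower in MSXH livers with a median g of 0.00754 and 0 at an unadjusted p of 0.05. They include Tap1 and Tap2, ABC transporters of subfamily B by sequence that carry antigen peptides and whose symbols leave them outside the 45. Tap1 ran from -46.9 through -1.57 to 141 in MSXH mice and from -60.9 through -18.1 to 58.1 in HFD mice (g = 0.442). Tap2 ran from -40.9 through -1.39 to 55.4 in MSXH mice and from -30.8 through -2.04 to 30.0 in HFD mice (g = 0.0210). Neither separated the diets.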

How the data were processed

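Per the labels, liver RNA was copied with a 3' IVT kit and biotin. The deposited values were read as log2 levels; how background, scaling and probe summary were handled is not given in the sources used here, and signal over background is unknown. Values of 45101 probe sets ran from 5.20 to 14.96. After leaving out 64 controls, the platform annotation named 1 gene for 34945 probe sets, several for 932 and none for 9160. Each of 18193 genes was represented by its highest probe set, and the 11728 at or above the median of the probe sets (6.51) were tested with limma 3.58.1 in R 4.3.3 (lmFit, eBayes), Benjamini-Hochberg adjustment and a threshold of 0.05. Correlations used 100000 permutations in SciPy 1.17.1. Arrays are biological replicates per the labels, and their number limits the precision. All 45 members matched the reference gene table by symbol. The 300-base promoter windows are RefSeq's on GRCm38.p6. Members, lists, pairs and tests were chosen with earlier results of these data known. Genes described in full were 14 of 15 listed liver members with a probe set, members with an unadjusted p below 0.05, the 3 with the largest SD and the highest of each subfamily, 17 in all, plus 6 listed regulators and partners and any of those lists at an unadjusted p below 0.05; Abca8b, Abca7 and Abcc8 were added outside this rule, and other members are given by single values. The statistics were tested on simulated data. Alternatives covered scaling, filters, probe-set choice, the variance model, weights, the Wilcoxon test, the replicate number as a block and leaving out each array; a first-component covariate was added after seeing the data.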

Additional observations from a re-analysis of the deposited data

Results flagged for a closer look

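Each member gave a set of 10 values per diet, and 5 of these 90 sets held 1 value standing apart from the rest, where chance gives about 4.5. The measure is the gap to the nearest mouse as a share of the whole range. Abca8b had HFD replicate 3 high at 442 millionths, with a gap of 0.748 of the range. The same mouse was high for Abcc9 (132, gap 0.553), for Abcg3 (74.6, gap 0.487) and for Abcd2 (23.9, gap 0.479), the last below the filter. Abcc8, also below the filter, had HFD replicate 7 high at 34.2, with a gap of 0.536. HFD replicate 3 thus accounted for 4 of the 5, and it also had the highest first-component score.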

How the results depend on the processing

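The absence of called members held in all 11 alternatives and all 20 fits without 1 array. There limma (or the Wilcoxon test) called 0 members, 0 genes and 0 regulators or partners. Not every setting tested every member. Quantile normalization left Abca1, Abcb4 and Abcd3 with 1 distinct value each, so they could not be tested there and 31 members remained. The members tested numbered 25 with the 75th percentile filter, 31 with the mean of all probe sets and 29 with the probe set of largest SD. The lowest adjusted p of any member was 0.955, with array weights. At an unadjusted p of 0.05 the main fit had 0 of 34 members and 425 of 11728 genes. Without the filter there were 2 of 45 members (Abcc4 and Abcc8) and 780 of 18193 genes. After quantile normalization there were 2 of 31 members (Abcc3 and Abce1) and 128 of 11215 genes. Leaving out 1 array gave 0 to 1 members and 318 to 598 genes. Genes at that p were 140 of 11728 once array medians were equalised, and 197 of 6941 with a filter at the 75th percentile. With the replicate number as a block, 0 members and 0 genes passed and 501 genes had an unadjusted p under 0.05. Deviations of same-numbered arrays correlated at -0.133 to 0.369, with a mean of 0.053 against -0.006 for other arrays. Only 2 of 20 arrays were closest to their own number. These values show no clear pairing by number, but they cannot exclude one. The first component as a covariate, chosen after seeing the data, gave 0 members and 534 such genes. Correlations depended on scaling. The shift to the same median moved arrays by up to 23.6 millionths, more than the SD of Abcb1a (5.36). It gave a median r over all members of 0.356, and r of 0.823 for Abcb1a with Abcb1b, 0.667 for Abcd2 with Abcd3 and 0.940 for Abcf1 with Abce1. The median r over all gene pairs was not computed after that shift. After quantile normalization r was 0.121 for Abcg5 with Abcg8 (adjusted p = 0.654 by permutation) and -0.322 for Abca8a with Abca8b. It was -0.230 for Abcb11 with Abcc2, -0.290 for Abcb1a with Abcb1b and -0.108 for Abcf1 with Abce1. That step left 2 distinct values for Abcb11, 3 for Abcc2, 5 for Abcb1a, 4 for Abcb1b, 5 for Abcf1 and 3 for Abce1. Most mice were thus tied, and these r say little about how the genes vary together. With the first component removed, r was 0.423 for Abca8a with Abca8b, -0.256 for Abcb11 with Abcc2 and -0.173 for Abcd2 with Abcd3. As deviations from the diet means, Abca1 with Abcg1 had r = 0.608 (adjusted p = 0.0142 by permutation). Leaving out 1 mouse gave r of 0.467 to 0.708 for Abca1 with Abcg1, -0.0814 to 0.190 for Abcb11 with Abcc2 and -0.0423 to 0.0955 for Abcd2 with Abcd3. The sign of g turned for Abcc6 (-0.232), Abcf1 (0.497), Abcg1 (-0.165), Abcg2 (0.0185) and Abcg8 (0.133) after quantile normalization. These 5 turns rest on few distinct values, 4 for Abcc6, 5 for Abcf1, 4 for Abcg1, 3 for Abcg2 and 6 for Abcg8. The sign also turned for Abcd3 (0.202) and Abcf1 (0.158) with the same median. With the mean of all probe sets it turned for Abcd3 (0.544) and Abcf1 (0.484), and with the probe set of largest SD for Abcf1 (0.637). Leaving out 1 mouse turned the sign of small g: -0.104 to 0.241 for Abca6, -0.00749 to 0.403 for Abca8a, -0.411 to 0.0427 for Abcb11, -0.105 to 0.368 for Abcc6, -0.326 to 0.138 for Abcd3, -0.152 to 0.300 for Abce1, -0.306 to 0.0989 for Abcf1, -0.431 to 0.00486 for Abcg2, -0.165 to 0.244 for Abcg5 and -0.254 to 0.256 for Abcg8. The causes were not tested.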

Other observations

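Abcd2, a peroxisomal transporter of very long-chain acyl groups that lies below the filter, had 4 probe sets. The 3 that were not chosen correlated with each other at r = 0.828, 0.878 and 0.909 over the 20 mice, and with the chosen one at 0.110 to 0.211. All 4 gave a positive g. Abcb10 showed the same kind of split, with r = 0.748 between 2 of its 3 probe sets and 0.083 and 0.115 for the third. Abce1 had r = 0.727 between 2 probe sets and -0.015 and 0.330 with the third. Of the motifs searched in the 42 member windows, CCAAT occurred in 35.7% of them and in 37.4% of all windows, and TATAAA in 16.7% and 13.6%. These values were picked after they were seen.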
